A study of Mus musculus with 9 samples.

Results

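The transcripts described here encode the enzymes that remove peroxides, superoxide and reactive electrophiles: the glutathione transferases, peroxiredoxins, glutathione peroxidases, thioredoxins with their reductases, superoxide dismutases and catalase, the enzymes that make and reduce glutathione, and the haem oxygenases with Nqo1. They were chosen by gene symbol alone, as the numbered Gst, Mgst, Prdx, Gpx and Txnrd genes together with Txn1, Txn2, Sod1, Sod2, Sod3, Cat, Gclc, Gclm, Gsr, Gss, Hmox1, Hmox2 and Nqo1. This gave 55 of the 35125 rows of the expression table that carry a symbol. Of these, 45 reached 0.5 FPKM (a read density corrected for transcript length and library size) in at least 3 of the 9 libraries, and 14013 genes in all did so. The 10 genes below that level were Gsta1, Gsta2, Gstm3, Gsto2, Gstp3, Gstt4, Mgst2, Gpx2, Gpx5 and Gpx6, of which Gsta1, Gstp3 and Gpx5 were listed at 0 in every library. The nearest of them was Gsto2, with at most 0.44 FPKM, and the lowest gene kept was Gstp2, with at most 0.98 FPKM.

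Polyadenylated RNA of the medial prefrontal cortex (mPFC) of mice was sequenced in 3 groups of 3 libraries. The running model is labelled exercise, the CUS model is labelled stress (CUS is chronic unpredictable stress), and the control is labelled no stress. The series text places the running in stressed mice, and the terms 4 week and week 8 stand in the labels of all 9 libraries without a statement of what they refer to. The sources used here name no strain, sex, age or running protocol. They do not say whether libraries are separate animals, so a p-value measures only library-to-library spread, and this may be technical. All 10 neuronal markers checked, among them Snap25 and Slc17a7, were kept, and none was at 0 in all libraries. Their summed level lay between 5346 and 5906 FPKM in running, between 5356 and 5740 FPKM in CUS and between 5523 and 5710 FPKM in control libraries.

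Glutathione is a tripeptide made in a pair of steps, the slower of which is catalysed by glutamate-cysteine ligase, the product of Gclc and Gclm. Glutathione peroxidases spend it to reduce peroxides, glutathione transferases couple it to electrophiles, and glutathione reductase (Gsr) restores it with NADPH. Peroxiredoxins reduce hydrogen peroxide with electrons from thioredoxin, which thioredoxin reductases recharge. Superoxide dismutases turn superoxide into hydrogen peroxide, the substrate of catalase, peroxiredoxins and peroxidases. In the brain, astrocytes are rich in glutathione and in several of these enzymes, and many of the genes are targets of the transcription factor NRF2.

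The levels of the 45 kept genes ran from 0.530 FPKM for Gstp2 to 322 FPKM for Gpx4 as a mean over the 9 libraries. After Gpx4, the peroxidase that reduces lipid hydroperoxides in membranes, came Sod1, the cytosolic copper-zinc dismutase, with 261 FPKM, and Gstp1, the pi class transferase, with 224 FPKM. Gstm1 and Gstm5 of the mu class averaged 158 and 120 FPKM, and Prdx5 and Prdx2 averaged 128 and 116 FPKM. The means of Gpx4 and Sod1 differed by less than the spread of Gpx4 between CUS libraries (SD 72.4 FPKM). The same holds for Prdx5, Gstm5 and Prdx2 beside the SD of Gstm5 in CUS (21.0 FPKM). These SDs are between libraries, while the genes were read in the same libraries. Within libraries, Gpx4 lay above Sod1 and Prdx5 above Prdx2 in each of the 9. Prdx5 lay above Gstm5 in each but CUS replicate 3, and Gstm5 and Prdx2 changed order between libraries. The inducible enzymes Hmox1 and Nqo1 were low, at 3.53 and 1.97 FPKM. Together the 55 genes held between 0.513% and 0.634% of the summed FPKM of a library. Gstp2 lies beside Gstp1, which is near identical to it, and its value of 0 in running replicate 2 and 0.08 FPKM in CUS replicate 3 stand beside counting that could split reads between them, so Gstp2 enters the counts and ranges of its class but its own differences are not described. The same caution holds for levels within the Gstm cluster on chromosome 3.

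Of the libraries, 2 stood apart. CUS replicate 3 had the highest FPKM sum, 423257, against 370441 to 393663 in the other 8, and it held the highest value of 31 of the 45 antioxidant genes, where it was highest for 30.9% of all 14013 genes. Low values of short genes fell on steps whose size lay between 0.970 and 1.02 of their mean in each library. Only values close to the smallest step of a gene were used, so a large difference in depth could not show. Relative depth is therefore not settled by these 2-decimal values, and the absolute depth is unknown. Control replicate 3 held more choroid plexus signal (summed markers 217 FPKM, against at most 41.7 in the other 8 libraries) and the highest myelin score. In bulk tissue, fewer cells of a type and less RNA per cell cannot be told apart.

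**Figure D1:**
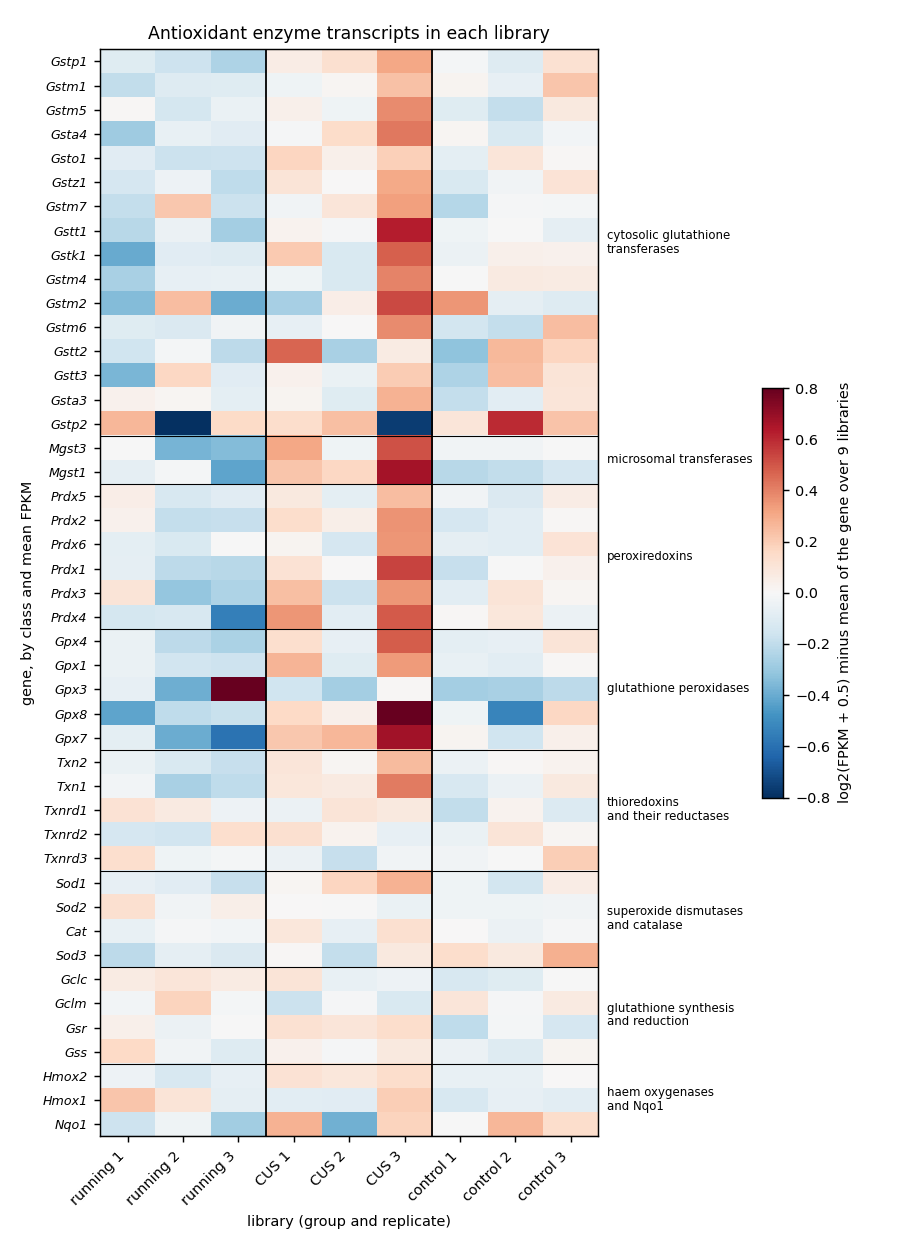
Level of the 45 kept antioxidant genes in each library (columns, grouped as running, CUS and control), drawn as log2(FPKM + 0.5) relative to its own 9-library mean, with colours capped at 0.8 either way. The column of CUS replicate 3 is the reddest, holding the highest value of 31 genes, and Gpx3 is high in running replicate 3 alone.

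Many of these genes are known to be induced through the antioxidant response element, to which NRF2 binds with small MAF proteins. The core letters TGACNNNGC were searched on both strands of the promoter window from 250 bases before to 50 bases after each start (RefSeq, GRCm38.p6). Of the 45 kept genes, 38 had a window, and 8 of them (21.1%) held the core: Gclm, Gsta3, Gstm5, Gstm7, Mgst1, Prdx1, Sod1 and Txnrd1. Per gene, it stood in 16.7% of the 11159 genes with a window that passed the same level and in 13.99% of all 27025 genes. Per window, since a gene can have several, it stood in 15.1% of the 53 windows of kept members and in 12.4% of all 32851 windows. A match is only a match of letters. The following 4 windows are examples and do not reflect the shares among the genes with the core. Prdx1 and Mgst1 were lower in running than in CUS libraries (log2 differences of -0.39 and -0.52), while Gclm was not (0.15). Txnrd1 had no clear direction, at 0.005, or -0.07 with the length and GC trend of transcripts removed. The other genes with the core were lower in running, with -0.27 for Sod1, -0.19 for Gstm5, -0.18 for Gstm7 and -0.08 for Gsta3. Each reads 5′ to 3′ on the strand of the gene, with the core in capitals, read here as its reverse complement.
Prdx1 (chr4:116685349-116685648, plus strand): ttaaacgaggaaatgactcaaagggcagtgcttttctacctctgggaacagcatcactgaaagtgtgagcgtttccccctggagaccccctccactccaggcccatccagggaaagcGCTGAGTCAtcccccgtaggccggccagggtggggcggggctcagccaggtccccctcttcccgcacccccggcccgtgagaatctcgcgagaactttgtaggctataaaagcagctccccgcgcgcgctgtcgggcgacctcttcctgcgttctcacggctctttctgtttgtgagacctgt
Mgst1 (chr6:138140277-138140576, plus strand): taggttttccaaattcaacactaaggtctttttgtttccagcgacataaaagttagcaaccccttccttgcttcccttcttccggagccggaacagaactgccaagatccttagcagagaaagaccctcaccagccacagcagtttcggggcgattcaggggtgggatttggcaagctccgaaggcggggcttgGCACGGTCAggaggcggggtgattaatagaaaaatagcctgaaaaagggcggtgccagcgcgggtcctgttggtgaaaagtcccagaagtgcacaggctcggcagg
Gclm (chr3:122245307-122245606, plus strand): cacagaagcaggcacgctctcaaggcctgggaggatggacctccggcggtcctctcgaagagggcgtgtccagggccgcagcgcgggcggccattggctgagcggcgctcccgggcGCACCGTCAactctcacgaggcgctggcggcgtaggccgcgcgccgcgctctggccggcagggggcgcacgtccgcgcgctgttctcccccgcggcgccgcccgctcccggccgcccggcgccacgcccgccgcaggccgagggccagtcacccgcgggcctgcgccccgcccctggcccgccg
Txnrd1 (chr10:82858956-82859255, plus strand): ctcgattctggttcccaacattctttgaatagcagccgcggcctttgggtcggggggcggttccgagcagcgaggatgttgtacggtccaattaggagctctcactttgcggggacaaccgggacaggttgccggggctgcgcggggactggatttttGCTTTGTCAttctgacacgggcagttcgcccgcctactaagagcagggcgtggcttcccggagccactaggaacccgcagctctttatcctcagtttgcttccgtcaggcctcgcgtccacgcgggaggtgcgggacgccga
The core of Prdx1 begins at position -133 from the start, that of Mgst1 at -56, that of Gclm at -134 and that of Txnrd1 at -92. In Prdx1 it contains TGACTCA on the other strand, the letters of an AP-1 site, so the motifs of both factors overlap there.

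Running was compared with CUS to ask what running does to the stressed cortex. Levels of antioxidant enzymes were lower in running than in CUS libraries for 38 of 45 genes, where 57.8% of all genes were lower and 42.2% higher, with a median log2 difference of -0.21 against -0.03 over all genes. No member was called by limma at an adjusted p under 0.05 over the whole table, where 1 of 14013 genes (0.00714%) was. At an adjusted p under 0.1 there were 10 members, each of them lower, against 4.5% of all genes lower and 6.62% in either direction. At an unadjusted p under 0.05, 20 of 45 were lower and 0 higher, where 15.7% of all genes were lower, 7.74% higher and 23.5% either. The values of running libraries lay below all CUS values for 17 members, against 15.9% of all genes, and above them for 0, against 8.99%. Rescaled to a common sum (TPM), 35 of 45 members were lower, where 36.7% of all genes were. These counts rest in part on which CUS library is used. Without CUS replicate 3, 37 of 45 were lower, the median was -0.13, and 17 passed an unadjusted p under 0.05, where 12.3% of all genes did so as lower. Without CUS replicate 2, 16 members were called, each lower, where 7.56% of all genes were called as lower and 10.8% in either direction.

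**Figure D2:**
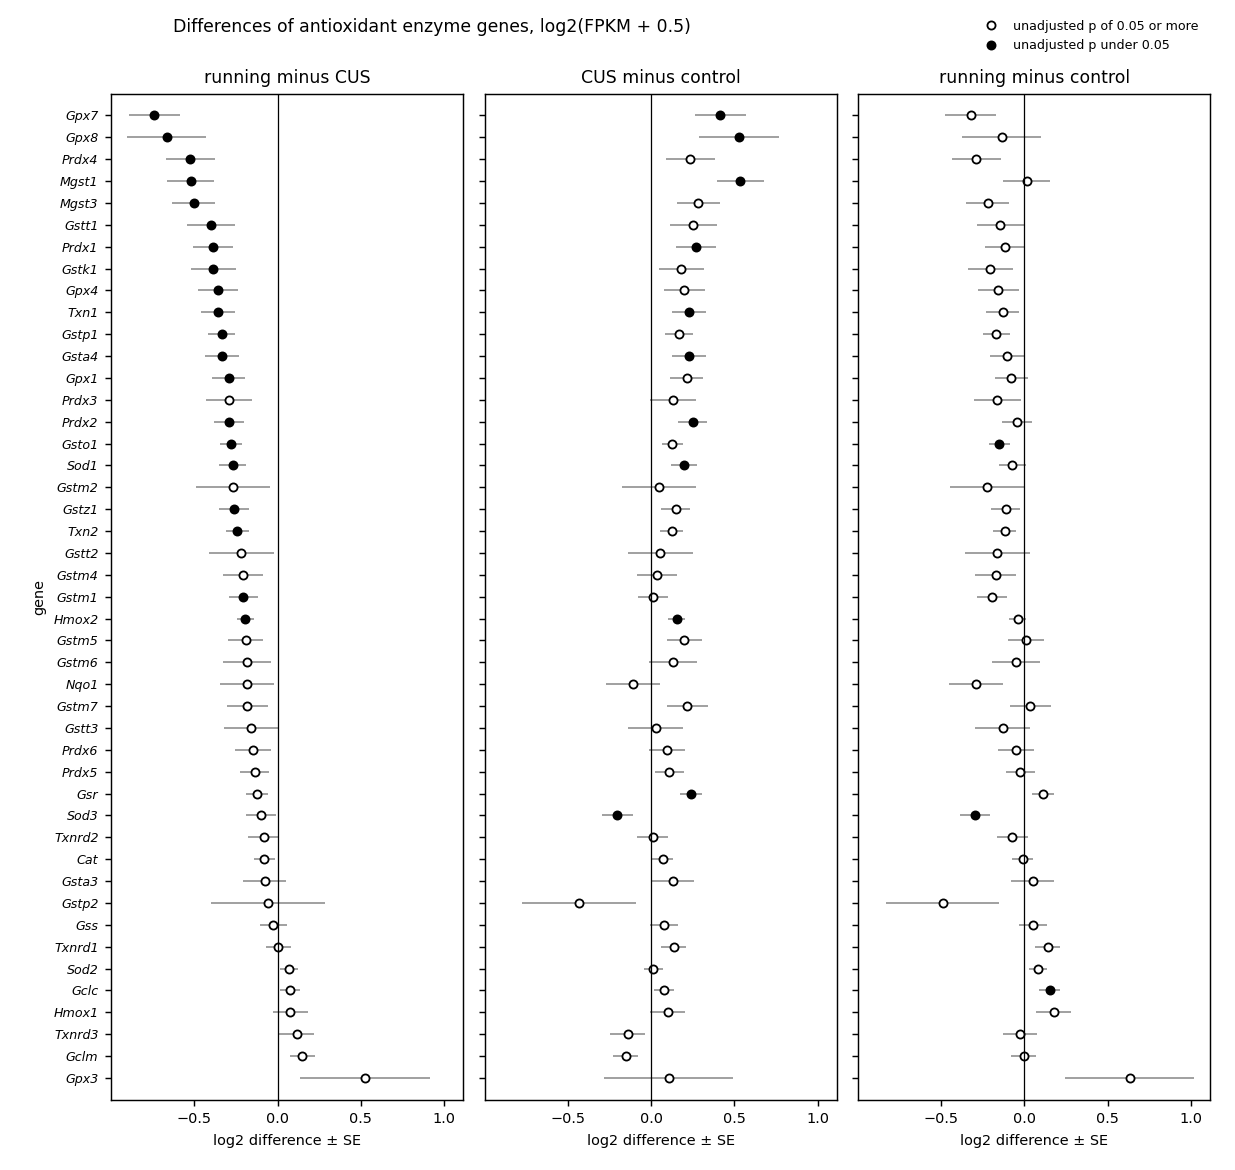
Log2 difference (± SE, limma on log2(FPKM + 0.5)) of the 45 genes for running minus CUS, CUS minus control and running minus control, in the same gene order, with filled points at an unadjusted p under 0.05. In the left panel 38 genes lie below 0 and in the middle panel 40 lie above 0; these panels share the CUS libraries.

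Among the glutathione peroxidases, 4 of 5 were lower in running than in CUS libraries. Gpx7 (chromosome 4, 108400217 to 108406713), a peroxidase of the endoplasmic reticulum, had 2.16, 1.64 and 1.37 FPKM in running libraries, 2.77, 2.88 and 3.98 FPKM in CUS libraries and 2.36, 2.02 and 2.39 FPKM in control libraries. All 3 running values lay below all 3 CUS values, and the difference was the most negative of the 45 genes, the log2 value differing by -0.74 (SE 0.153; by limma, adjusted p = 0.0776). Gpx8, its membrane-bound relative in the same compartment, had 2.05, 2.47 and 2.52 FPKM in running libraries, 3.32, 3.02 and 6.28 FPKM in CUS libraries and 2.84, 1.87 and 3.34 FPKM in control libraries. CUS replicate 3 stood far above the other CUS libraries, and the log2 difference of -0.66 became -0.37 without it. Gpx4 (chromosome 10, 80047166 to 80056439) had 307, 276 and 267 FPKM in running libraries, 351, 305 and 447 FPKM in CUS libraries and 301, 304 and 343 FPKM in control libraries. Running replicate 1 overlapped the lowest CUS library, and the log2 difference was -0.36 (SE 0.123; by limma, adjusted p = 0.126), or -0.21 without CUS replicate 3. Gpx1, the abundant cytosolic selenoenzyme, had a log2 difference of -0.29 with overlapping groups.

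Gpx3, the secreted peroxidase of plasma, had a positive difference that rests on 1 library. It had 7.18, 5.64 and 24.1 FPKM in running libraries, 6.71, 6.17 and 7.62 FPKM in CUS libraries and 6.16, 6.24 and 6.47 FPKM in control libraries. Running replicate 3 was 3.17 times the highest of the other 8 libraries, and of the 9100 kept genes with at least 5 FPKM in that library no other exceeded 1.46 times. The log2 difference between running and CUS was 0.52 (SE 0.388; by limma, adjusted p = 0.436), and -0.090 without that library. In running replicate 3 the choroid plexus markers summed to 41.7 FPKM, against 24.8 and 27.9 FPKM in the other running libraries, and their score of 0.43 was the highest after that of control replicate 3, at 1.85, where Gpx3 was 6.47 FPKM. The meningeal score of running replicate 3 was the lowest of the 9, at -0.45. The part of choroid plexus in the Gpx3 value was not tested. Gpx3 was described after its values were seen.

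Both microsomal transferases, membrane proteins that conjugate glutathione and reduce lipid peroxides, were lower in running than in CUS. Mgst3 (chromosome 1, 167371966 to 167393841) had 68.0, 52.6 and 53.4 FPKM in running libraries, 84.7, 66.6 and 97.4 FPKM in CUS libraries and 66.9, 66.8 and 67.9 FPKM in control libraries. Running replicate 1 lay above CUS replicate 2 and the groups overlapped, and the log2 difference was -0.50 (SE 0.130; by limma, adjusted p = 0.0873). Mgst1 (chromosome 6, 138140527 to 138156755) had 4.97, 5.18 and 3.78 FPKM in running libraries, 6.20, 5.95 and 8.62 FPKM in CUS libraries and 4.43, 4.52 and 4.73 FPKM in control libraries. Its CUS values exceeded all values of both other groups, and running differed from CUS by -0.52 in log2 value (SE 0.140; by limma, adjusted p = 0.0890). Without CUS replicate 3 the differences were -0.38 for Mgst3 and -0.37 for Mgst1.

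Each of the 16 cytosolic glutathione transferases kept had a lower mean log2 value in running libraries than in CUS libraries, by differences between -0.40 and -0.06 and a median of -0.21. It was 15 of 16 when any 1 of the CUS libraries or running replicate 2 was left out, and with the length and GC trend of transcripts removed, and 16 of 16 as TPM or after quantile normalization. Gsto1 (chromosome 19, 47854973 to 47864790), an omega class enzyme that reduces dehydroascorbate, had 24.0, 22.7 and 22.8 FPKM in running libraries, 29.0, 26.3 and 29.4 FPKM in CUS libraries and 24.2, 27.4 and 25.8 FPKM in control libraries. Running values lay below all values of both other groups, and the difference from CUS was -0.28 (SE 0.0653; by limma, adjusted p = 0.0776). Gstp1 (chromosome 19, 4035411 to 4037912) had 209, 199 and 188 FPKM in running libraries, 233, 244 and 276 FPKM in CUS libraries and 220.2, 208 and 242 FPKM in control libraries. The running and CUS values did not overlap, the log2 value differing by -0.34 (SE 0.0820; by limma, adjusted p = 0.0827), while the controls spanned the gap. Gstm1 (chromosome 3, 108012250 to 108017973), an enzyme abundant in astrocytes, had 137, 146 and 147 FPKM in running libraries, 153, 159 and 185 FPKM in CUS libraries and 159.6, 150.4 and 184 FPKM in control libraries. Here running was lower than both other groups, with a log2 difference from CUS of -0.20 (by limma, adjusted p = 0.198). Differences of a further 3 members, Gsta4, Gstz1 and Gstt1, came with running values below all CUS values.

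All 6 peroxiredoxins had lower values in running libraries than in those of CUS, the median log2 difference being -0.29. Prdx4, the peroxiredoxin of the endoplasmic reticulum, had 11.1, 11.1 and 8.20 FPKM in running libraries, 15.7, 11.5 and 17.4 FPKM in CUS libraries and 12.3, 13.0 and 11.8 FPKM in control libraries. Its log2 difference was -0.52 (SE 0.147; by limma, adjusted p = 0.0929). Prdx2 (chromosome 8, 84969622 to 84974811), a cytosolic enzyme that is also abundant in red blood cells, had 119, 101 and 102 FPKM in running libraries, 127, 119 and 148 FPKM in CUS libraries and 105, 109 and 116 FPKM in control libraries. Running replicate 1 nearly reached CUS replicate 2, and the log2 difference was -0.29 (by limma, adjusted p = 0.103). Prdx1, its cytosolic relative, had a log2 difference of -0.39 (by limma, adjusted p = 0.107), and -0.23 without CUS replicate 3. Prdx5 (chromosome 19, 6906697 to 6910106), found in mitochondria, peroxisomes and cytosol, was the most abundant and had 133, 117 and 120.1 FPKM in running libraries, 135, 121 and 152 FPKM in CUS libraries and 125, 118 and 133 FPKM in control libraries. Its groups overlapped, and the log2 difference was -0.14.

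**Figure D3:**
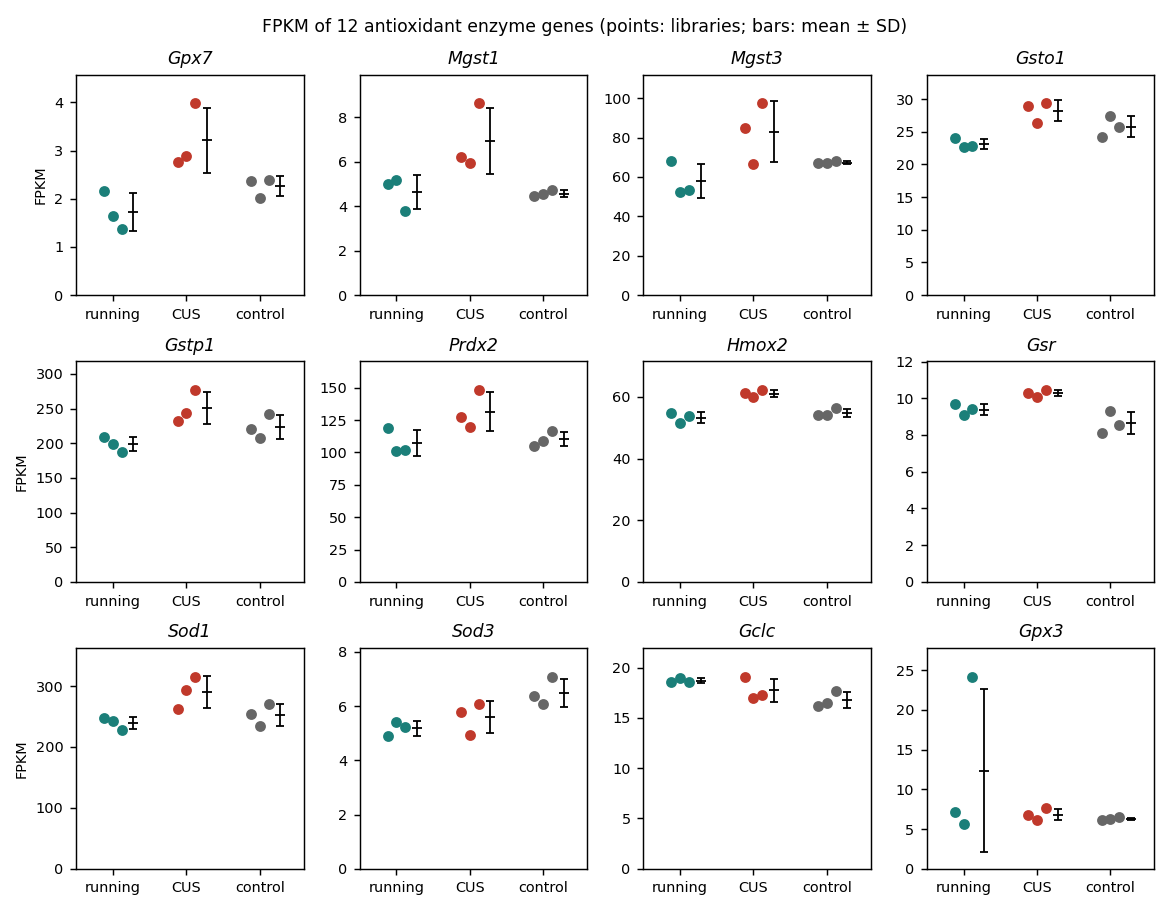
FPKM of 12 antioxidant genes in each library (points) with the mean ± SD of each group of 3 libraries (bars), for running, CUS and control. Gpx7 lies between 1.37 and 2.16 FPKM in running and between 2.77 and 3.98 FPKM in CUS libraries, and the Gpx3 mean of the running group is carried by 1 library at 24.1 FPKM.

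Both thioredoxins had lower values in running than in CUS libraries. Txn2 (chromosome 15, 77915051 to 77928994), the mitochondrial thioredoxin, had 84.6, 80.7 and 77.3 FPKM in running libraries, 94.0, 88.7 and 105 FPKM in CUS libraries and 85.2, 88.6 and 89.5 FPKM in control libraries. Running values lay below all CUS and all control values, differing from CUS by -0.24 in log2 value (SE 0.0682; by limma, adjusted p = 0.0939). Txn1, the cytosolic form, had 45.3, 38.3 and 40.0 FPKM in running libraries, 49.1, 48.5 and 61.7 FPKM in CUS libraries and 42.1, 44.5 and 48.6 FPKM in control libraries. Its log2 difference was -0.36 (by limma, adjusted p = 0.0928). The reductases Txnrd1, Txnrd2 and Txnrd3 had overlapping groups and unadjusted p values above 0.05.

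Of the dismutases, Sod1 (chromosome 16, 90220762 to 90226333) had 248, 243 and 229 FPKM in running libraries, 263, 293 and 315 FPKM in CUS libraries and 254, 234 and 270.1 FPKM in control libraries. Running values lay below all CUS values, the log2 value differing by -0.27 (SE 0.0802; by limma, adjusted p = 0.0993). Sod2, the manganese enzyme of mitochondria, had a log2 difference of 0.07 and catalase overlapped between groups. Hmox2 (chromosome 16, 4726361 to 4766742), the constitutive haem oxygenase of neurons, had 54.7, 51.4 and 53.9 FPKM in running libraries, 61.1, 59.9 and 62.2 FPKM in CUS libraries and 54.1, 54.0 and 56.4 FPKM in control libraries. The CUS values lay above all values of both other groups in this gene with its small spread, and the log2 difference of running from CUS was -0.19 (SE 0.0506; by limma, adjusted p = 0.0877), or -0.18 without CUS replicate 3. Hmox1, the inducible form, had a log2 difference of 0.08.

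Of the 4 genes of glutathione synthesis and reduction, 2 were higher and 2 lower in running than in CUS. Gclc (chromosome 9, 77754535 to 77794489), the catalytic subunit of glutamate-cysteine ligase, had 18.6, 19.0 and 18.6 FPKM in running libraries, 19.1, 17.0 and 17.2 FPKM in CUS libraries and 16.2, 16.5 and 17.6 FPKM in control libraries. CUS replicate 1 was the highest of all, the groups overlapped, and the log2 difference of running from CUS was 0.07 (by limma, adjusted p = 0.496). Gclm, the modifier subunit, had a log2 difference of 0.15 (by limma, adjusted p = 0.260). Gsr (chromosome 8, 33653238 to 33698162), which reduces oxidised glutathione, had 9.67, 9.09 and 9.39 FPKM in running libraries, 10.3, 10.1 and 10.4 FPKM in CUS libraries and 8.11, 9.28 and 8.54 FPKM in control libraries. Its running values lay below all CUS values by a small margin, with a log2 difference of -0.13 (by limma, adjusted p = 0.273). The 7 of 45 genes not lower in running than in CUS were Gclc, Gclm, Gpx3, Hmox1, Sod2, Txnrd1 and Txnrd3.

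**Figure D4:**
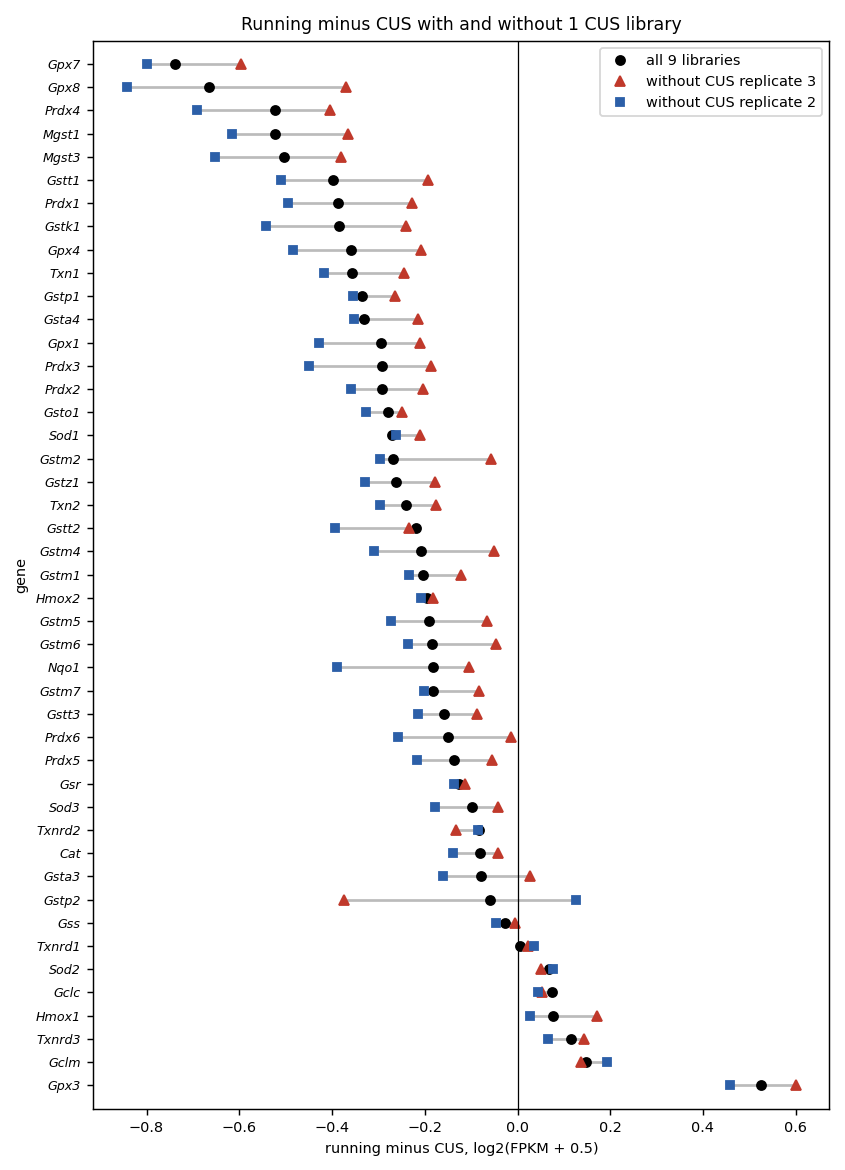
Log2 difference of running minus CUS for the 45 genes with all 9 libraries (circles), without CUS replicate 3 (triangles) and without CUS replicate 2 (squares). The median is -0.21, -0.13 and -0.27 in that order, and 38, 37 and 37 genes lie below 0.

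CUS was compared with control to ask how stress changes this cortex. Antioxidant enzyme levels were higher in CUS than in control libraries for 40 of 45 genes, where 55.9% of all genes were higher and 44.1% lower, with a median log2 difference of 0.13 against 0.02 over all genes. No member was called by limma at an adjusted p under 0.05, and 1 of 14013 genes (0.00714%) was. At an unadjusted p under 0.05, 10 members were higher and 1 lower, where 8.9% and 5.79% of all genes were. CUS values lay above all control values for 5 members (11.1%), against 12.1% of all genes, a share near the background, and below them for 0, against 7.6%. Without CUS replicate 3, 34 of 45 genes were higher, the median was 0.06, and 3 members were higher at an unadjusted p under 0.05, where 5.79% of all genes were. Rescaled to a common sum (TPM), 34 of 45 were higher, where 39.3% of all genes were.

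The 5 members without overlap between CUS and control were Mgst1, Gsr, Hmox2, Prdx2 and Gpx7. Mgst1 averaged 6.92 ± 1.47 FPKM in CUS and 4.56 ± 0.154 FPKM in control libraries (SD, n = 3 each), which differ by 0.54 in log2 value (SE 0.140; by limma, adjusted p = 0.253). Gsr averaged 10.3 ± 0.176 FPKM in CUS and 8.64 ± 0.592 FPKM in control libraries, which differ by 0.24 in log2 value (SE 0.0658; by limma, adjusted p = 0.253). Hmox2 differed by 0.15 (by limma, adjusted p = 0.267), Prdx2 by 0.25 (by limma, adjusted p = 0.284) and Gpx7 by 0.42 (by limma, adjusted p = 0.288). Sod1 had a log2 difference of 0.20 with overlapping groups (by limma, adjusted p = 0.310). Of the abundant members, Gstp1 had a log2 difference of 0.17, Mgst3 one of 0.28 and Gpx4 one of 0.20, all with overlapping groups. Lower in CUS were Gclm, with a log2 difference of -0.15, Gstp2, Nqo1, Txnrd3 and Sod3. Sod3 (chromosome 5, 52363804 to 52369738), the extracellular dismutase, had 4.89, 5.42 and 5.23 FPKM in running libraries, 5.77, 4.94 and 6.07 FPKM in CUS libraries and 6.36, 6.06 and 7.07 FPKM in control libraries, and its log2 difference of CUS from control was -0.20 (SE 0.0905; by limma, adjusted p = 0.338).

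Running was also set against the unstressed control. Here 34 of 45 genes were lower in running libraries, where 56.2% of all genes were lower and 43.8% higher, with a median log2 difference of -0.10 against -0.02 over all genes. No member was called by limma at an adjusted p under 0.05, while 3 of 14013 genes (0.0214%) were. At an unadjusted p under 0.05, 2 members were lower and 1 higher, where 6.47% and 5.15% of all genes were. Running values lay below all control values for 8 members, against 11.9% of all genes, and above them for 2, against 10.5%. Without control replicate 3 the median was -0.05 and 28 of 45 genes were lower in running. As TPM, 30 of 45 were lower, where 45.5% of all genes were. Sod3 had the smallest p, the log2 value differing by -0.30 (SE 0.0905; by limma, adjusted p = 0.268) and running values below all controls. Gclc was higher in each running than in each control library, the log2 value differing by 0.15 (SE 0.0623; by limma, adjusted p = 0.393). Gsto1 had a log2 difference of -0.15 (by limma, adjusted p = 0.415) and Gstm1 one of -0.19 (by limma, adjusted p = 0.439), both without overlap. Gpx7 and Gstp1 had log2 differences of -0.32 and -0.17, with overlapping groups. Nqo1, a quinone reductase and classical NRF2 target, had 1.68, 1.89 and 1.52 FPKM in running libraries, 2.47, 1.37 and 2.27 FPKM in CUS libraries and 1.94, 2.44 and 2.19 FPKM in control libraries. Its running values lay below all controls (log2 difference -0.29, limma adjusted p = 0.521), and its CUS values spanned both groups. Hmox1 had a log2 difference of 0.18, and Sod2, higher in each running than in each control library, one of 0.08. The controls enter this comparison and that of CUS with control, and the running libraries enter both comparisons of running.

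Genes that feed or regulate these enzymes were described from 5 further lists, in which limma called 0 genes over the whole table in any comparison. Over all genes, 57.8% were lower in running than in CUS, 15.7% were lower and 7.74% higher at an unadjusted p under 0.05, and the median log2 difference was -0.03. Of 19 thioredoxin partners and repair enzymes, 13 were lower in running than in CUS, 7 of them at an unadjusted p under 0.05, and 6 were higher, 1 of them at that level, with a median of -0.13. Park7, a redox-sensitive chaperone, averaged 76.0 ± 1.51 FPKM in running and 87.6 ± 3.27 FPKM in CUS libraries (by limma, adjusted p = 0.112), and Sesn3, a sestrin, had a log2 difference of 0.52 (SE 0.155) with overlapping groups. Of 17 glutathione cycle genes and glutaredoxins, 12 were lower in running than in CUS, 6 of them at an unadjusted p under 0.05, with a median of -0.13, the glutaredoxin Glrx (21.0 ± 2.31 FPKM in running and 25.3 ± 2.45 FPKM in CUS) and Hagh, a hydrolase of the glyoxalase route, having the smallest p. Of 15 genes of NADPH and cystine supply, 13 were lower with a median of -0.07, and 3 of them passed that level, a share near that of all genes. Among these was Pgls, of the pentose phosphate pathway, with 19.5 ± 2.30 FPKM in running and 24.5 ± 1.81 FPKM in CUS libraries. Of 15 genes of selenoprotein supply, 12 were lower, 5 of them at that level, with a median of -0.13. The other 3 were higher, and 1 of these passed that level, Lrp8, which takes up selenoprotein P (16.6 ± 0.842 FPKM in running and 13.9 ± 1.53 FPKM in CUS).

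The NRF2 regulators were mixed. Of 11 genes, 7 were higher and 4 lower in running than in CUS, 3 and 2 of them at an unadjusted p under 0.05, with a median of 0.04. The 2 lower genes are a share near the 15.7% of all genes. Mafg, a small MAF partner of NRF2, averaged 28.2 ± 0.497 FPKM in running and 24.7 ± 1.89 FPKM in CUS libraries, and Rbx1, a subunit of the ligase that marks NRF2 for degradation, 50.2 ± 1.51 FPKM in running and 61.4 ± 6.72 FPKM in CUS. In CUS against control 8 of the 11 were lower, where 44.1% of all genes were. Maff and Mafk, further small MAF genes, lay below all controls, as did 7.6% of all genes. Maff averaged 0.607 FPKM in CUS, near the level for keeping a gene, and 1.12 FPKM in control libraries. Mafk averaged 3.41 and 4.36 FPKM (by limma, adjusted p = 0.267 for each). In that comparison 12 of 15 NADPH and cystine genes, 13 of 19 thioredoxin partners, 10 of 17 glutathione cycle genes and 10 of 15 selenoprotein supply genes were higher in CUS, where 55.9% of all genes were, a share that the glutathione cycle genes are close to. In running against control, 8 of 11 NRF2 regulators, 7 of 15 NADPH and cystine genes, 14 of 17 glutathione cycle genes, 13 of 19 thioredoxin partners and 12 of 15 selenoprotein supply genes were lower in running, where 56.2% of all genes were.

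Other features of the libraries moved with these differences. The score of the 45 genes, the mean over genes of the log2 value minus its mean over the 9 libraries, lay between -0.11 and -0.07 in running, between -0.02 and 0.27 in CUS and between -0.07 and 0.04 in control libraries. Scores of 20 cytosolic ribosomal protein genes lay between -0.24 and -0.12 in running, between 0.05 and 0.44 in CUS and between -0.11 and 0.10 in control libraries, and those of 20 respiratory chain genes between -0.18 and -0.03, between 0.04 and 0.33 and between -0.09 and 0.05 in the same order of groups. All 20 genes of each list were lower in running than in CUS. At an unadjusted p under 0.05 by limma, 19 ribosomal and 18 respiratory genes were lower, against 20 of 45 antioxidant genes. The median log2 differences were -0.35 and -0.32, larger shifts than the -0.205 of the antioxidant genes. In CUS against control all 20 genes of each list were higher. The medians there were 0.22 and 0.23, against 0.13 for the antioxidant genes. The antioxidant transcripts have a median length of 897 bases, against 1501 bases over kept genes. After removal of the trend with length and GC, medians of the antioxidant genes were -0.17 for running against CUS and 0.10 for CUS against control. Medians over all genes were then -0.04 and 0.02. In that setting 37 of 45 were lower in running than in CUS, where 59.7% of all genes were. In CUS against control 38 of 45 were higher, where 56.6% of all genes were. The part of these features in the antioxidant differences was not tested.

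**Figure D5:**
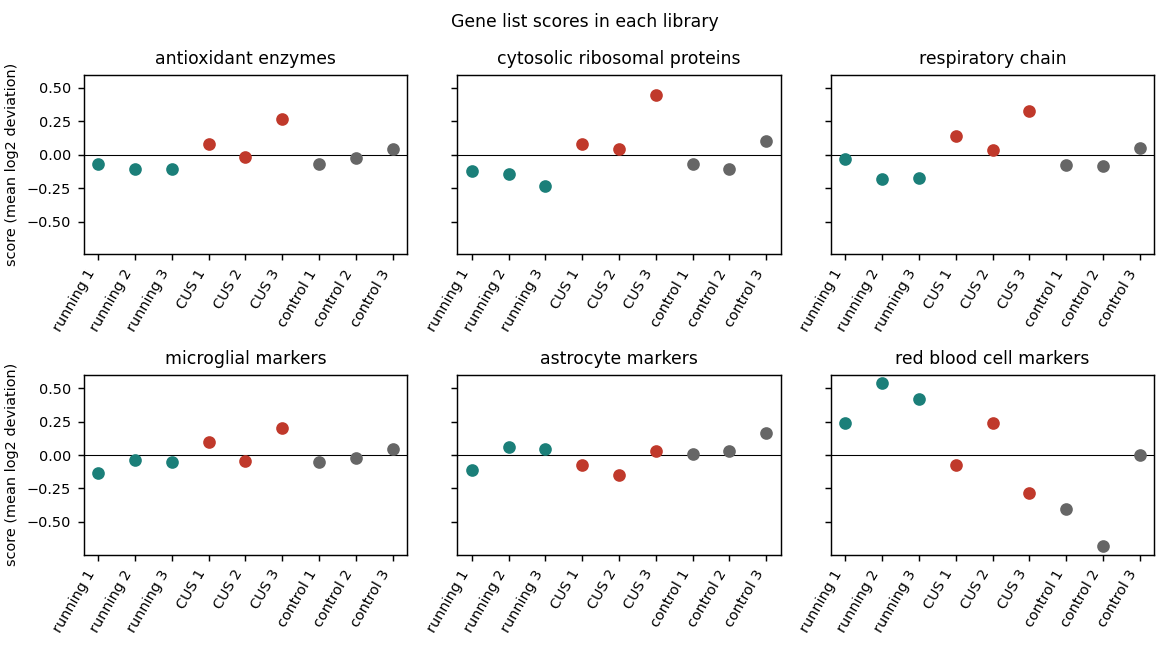
Score of 6 gene lists (mean log2 deviation from the gene mean over 9 libraries) in each running, CUS and control library. CUS replicate 3 is the highest library for antioxidant (0.27), ribosomal (0.44), respiratory (0.33) and microglial (0.20) lists, and the highest red blood cell scores are those of running replicates 2 and 3.

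Markers of other cell types were read beside these values. Over all genes, 57.8% were lower and 42.2% higher in running than in CUS. In CUS against control 55.9% were higher and 44.1% lower, and 56.2% were lower in running than in control. Microglial markers, of which 11 of 12 were lower in running than in CUS, summed to between 246 and 264 FPKM in running, between 269 and 333 FPKM in CUS and between 265 and 293 FPKM in control libraries. Astrocyte markers, of which 9 of 12 were higher in running than in CUS, summed to between 1184 and 1340 FPKM, between 1225 and 1334 FPKM and between 1296 and 1455 FPKM in the same order. In CUS against control, 11 of 12 astrocyte markers were lower, 3 of them at an unadjusted p under 0.05 by limma. Of the microglial markers, 10 of 12 were higher in CUS than in control, 2 of them at that level. Red blood cell markers, with 5 of 7 kept and all 5 higher in running, summed to between 973 and 1238 FPKM in running libraries. Their sums lay between 683 and 1040.5 FPKM in CUS and between 493 and 875 FPKM in control libraries. Meningeal markers moved in the same direction as the antioxidant genes. Of 8, 7 were lower in running than in CUS (median log2 difference -0.32) and 7 were higher in CUS than in control (median 0.14), with 0 at an unadjusted p under 0.05, and CUS replicate 3 had the highest score, 0.45. They summed to between 23.8 and 47.5 FPKM in running, between 31.5 and 57.6 FPKM in CUS and between 27.9 and 44.8 FPKM in control libraries. Endothelial markers were lower in running than in control for 10 of 10 genes and mural cell markers for 7 of 8, and they were lower in CUS than in control for 9 of 10 and 8 of 8. Endothelial sums lay between 99.8 and 129 FPKM in running, between 103 and 124 FPKM in CUS and between 123 and 137 FPKM in control libraries. Mature oligodendrocyte markers were lower than in controls for 12 of 12 genes in both running and CUS, as group means. Their sums lay between 602 and 676 FPKM in running and between 519 and 759 FPKM in CUS libraries. In control replicates 1, 2 and 3 they were 682, 729 and 1266 FPKM. Control replicate 3 thus stood far above the other controls, and CUS replicate 1, at 759 FPKM, lay above those. No marker of any list was at 0 in all 9 libraries. The part of these cell types in the antioxidant differences was not tested.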

How the data were processed

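Gene expression was measured in 9 libraries of mouse medial prefrontal cortex, 3 per group. Build mm10 and Bowtie2 2.2.5, RSEM 1.2.12 and DESeq2 1.4.5 are named, with no role for each, per the submitters' processing notes. Per the labels' protocols, poly(A) selection was followed by random priming without strand marking, so sense and antisense transcripts of a locus are counted together. The authors deposited FPKM values with 2 decimals, and the absolute read depth is unknown, so no counting interval could be given. The 30264 rows without a symbol were at 0 throughout. No pair of libraries held identical values.

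Values were analysed as log2(FPKM + 0.5), and fold changes on this scale understate those of low genes. A gene was kept where 3 or more of the 9 libraries reached 0.5 FPKM. All 9 libraries entered 1 model per fit of limma 3.58.1 (R 4.3.3, intensity trend, 6 residual degrees of freedom), with Benjamini-Hochberg adjustment over 14013 genes and a call at an adjusted p under 0.05. An exact test of 3 against 3 libraries cannot give a p under 0.1. The code was tested on simulated data. The members, lists and tests were chosen with earlier results of these data known. Per-library values were given for the 6 members of at least 1 FPKM with the smallest p in each comparison and the most abundant of each of 8 classes. The values of Gpx3, Gpx8, Prdx4, Txn1 and Nqo1 were added after they were seen. So were the single log2 differences of Gpx1, Prdx1, Gclm, Hmox1, Sod2, Gsta3, Gstm5, Gstm7 and Txnrd1. From each further list up to 2 genes per comparison were named by smallest p. Coordinates and promoters are those of RefSeq, GRCm38.p6, matched for 45 of 45 kept members by gene identifier. Alternatives covered pseudocount, filter, scaling, weights, variance trend, libraries used and, chosen after seeing the data, the trend of GENCODE transcript length and GC content.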

Additional observations from a re-analysis of the deposited data

How the results depend on the processing

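No paired analysis was possible because replicate numbers were given by order of listing and pair no libraries. Differences of single members, 45 pairs of gene and comparison, were recomputed under 19 alternatives, and 44 had the same sign in all of them. That of Gpx3 between running and CUS was -0.090 without running replicate 3 and lay between -0.090 and 0.91 when 1 library was left out. Not every difference given in the text was among these pairs. Between running and CUS, Txnrd1 changed sign, from 0.005 to -0.07, after correction for transcript length and GC content. Gsta3 changed sign, from -0.08 to 0.03, without CUS replicate 3. The number of members called stayed at 0 in CUS and running against control under every alternative run. In running against CUS it was 0 except with library quality weights and when 1 library was left out. With weights it was 15, each lower, where 10.6% of all genes were called as lower and 15.5% in either direction. With 1 library left out it lay between 0 and 16, the highest without CUS replicate 2. The median member difference of running against CUS moved to -0.11 when values were rescaled to TPM, where the median of all genes was 0.06, and lay between -0.27 and -0.13 when 1 library was left out. Over all genes, the number called in running against CUS was 0 with no filter or with the length and GC trend removed, 3 as TPM, 2 with quantile normalization, 2178 with library quality weights, 15 in the 6 libraries alone and between 0 and 1518 with 1 library left out. In CUS against control it was 0 with a filter of 1 FPKM or with the length and GC trend removed, 8 with weights and between 1 and 6 with 1 library left out. In running against control it was 1 with no filter, 147 with weights, 7 with no variance trend, 24 in the 6 libraries alone, 6 with the length and GC trend removed and between 1 and 10 with 1 library left out. Where a group was left with 2 libraries, its spread was taken from the shared model. Replicates of 3 and the unknown read depth limit what these values can resolve.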
